A study of Rattus norvegicus with 6 samples.

Results

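Immediate-early genes are the genes a cell transcribes first after a stimulus, before any new protein has been made. A group of 10 genes named for them was followed here in cultured rat spinal cord ependymal stem cells with and without glutamate. Whether each member meets that definition in these cells was not tested. The 10 were taken by Ensembl gene ID from count tables of 32883 gene IDs, and all 10 were among the 15919 that passed the filter on low counts. They are Fos (ENSRNOG00000008015), Fosl1 (ENSRNOG00000020552), Jun (ENSRNOG00000026293), Junb (ENSRNOG00000042838) and Atf3 (ENSRNOG00000003745), which encode subunits of AP-1 and a related leucine zipper factor. The zinc finger factors Egr1 (ENSRNOG00000019422) and Egr2 (ENSRNOG00000000640), the orphan nuclear receptor Nr4a1 (ENSRNOG00000007607), and the activity genes Arc (ENSRNOG00000043465) and Dusp1 (ENSRNOG00000003977) complete the group. The symbols come from the list that defines the group, since the tables carry IDs alone.

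RNA was sequenced in bulk from epNSPCs, stem and progenitor cells grown from the ependymal lining of the rat spinal cord's central canal. The control group (3 libraries) was kept in neurobasal media and the other group (3 libraries) in the same media with 500 uM glutamate, all at day 2. The labels state no strain, age, number of animals or culture for either group, so the spread behind each p-value is that between these libraries and may be technical. In bulk RNA a change in the share of cells that express a gene and a change in RNA per cell cannot be told apart.

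Calcium entry and ERK signalling can switch many such genes on through the serum response factor and CREB, factors that already sit in the resting cell. Their transcripts are short-lived as a rule, so a level measured at a given moment reflects recent transcription. Fos-family proteins pair with Jun-family proteins to form AP-1, while Dusp1 is a phosphatase that turns MAP kinases off again. In neurons glutamate is a classic stimulus for many genes of this kind. In glial and progenitor cells growth factors, injury and stress are also known to induce them.

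Libraries held 166567977 to 181352365 counts, and the totals did not separate the groups (exact two-sided permutation p = 0.5, where 0.1 is the smallest that 3 against 3 libraries allow). Levels are given as CPM, the count scaled to a common library size, on totals scaled by the TMM method. The lowest count of any of the 10 genes in any library was 228 reads, for Atf3 in control replicate 2. Transcript lengths were not in the files, so levels are compared between libraries and not between genes. Across all 15919 genes tested, 4413 were called at an adjusted p below 0.05 (edgeR quasi-likelihood test), or 27.7%, with 2603 without control replicate 2 and 2420 to 2442 without any 1 glutamate library. Markers of ependymal and other cell types were not evaluated, because the files do not pair IDs with names.

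Glutamate replicate 1 stood apart from the other libraries in these genes. In 7 of the 10 its level was at least 2-fold above that of every other library: Fos, Junb, Atf3, Egr1, Egr2, Nr4a1 and Dusp1. Over all genes tested only 29 met that bar in this library, or 0.182%, and 7 of those 29 were from this group. The same bar was met by 2 to 10 genes in each of the other 5 libraries, none of them among the 10. Glutamate replicate 1 was also the highest of the 6 libraries for 9 of the 10 genes, which was the case for 15.3% of all genes tested. Over all genes this library differed from glutamate replicates 2 and 3 by a chi-square per gene of 31.3 and 45.4, against 19.0 between those replicates and 32.0 to 160.3 between control libraries. It was thus the farthest of its group, by less than control replicate 1 was from control replicates 2 and 3 (88.3 and 160.3). Results are therefore given with and without this library, a choice made after its values were seen.

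**Figure D1:**
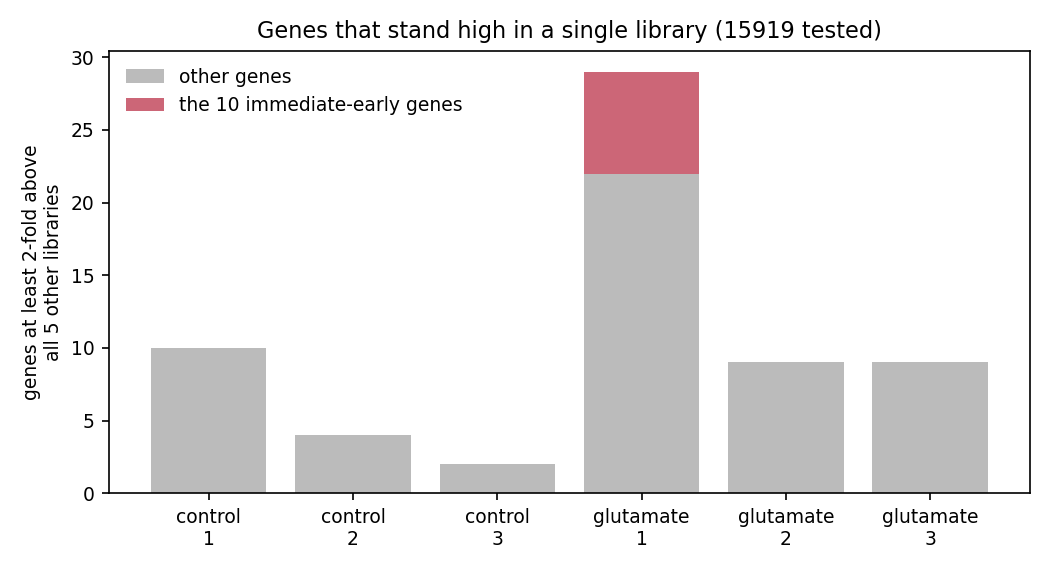
Number of genes (vertical axis) whose CPM in 1 library was at least 2-fold above that in all 5 others, for each library (horizontal axis). Grey marks other genes and red the 10 immediate-early genes, whose 7 entries all fall in the bar of 29 genes for glutamate replicate 1.

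With all 6 libraries, Atf3 and Fosl1 rose with glutamate, none of the 10 genes fell, and 8 did not pass the test. Rises made up 14.1% of all genes tested and falls 13.7%. The median log2 fold change of the 10 genes was 1.23, against -0.01 over all genes tested, and 9 of the 10 values were positive. In 5 of the 10 (Fos, Fosl1, Jun, Atf3 and Nr4a1) all 3 glutamate libraries lay above all 3 control libraries, as they did in 22.8% of all genes tested. The same 5 genes met this bar for glutamate replicates 2 and 3 alone, which 25.9% of all genes tested met. The glutamate libraries differed widely among themselves in this group, mostly through glutamate replicate 1. Except in Fosl1, glutamate replicates 2 and 3 were closer to each other than to replicate 1, though still apart in Egr1 (42.0 and 120.2 CPM). The coefficient of variation between all 3 glutamate libraries had a median of 86.1% over the 10 genes, against 5.37% over all genes tested. Between control libraries the medians were 12.5% and 9.55%.

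**Figure D2:**
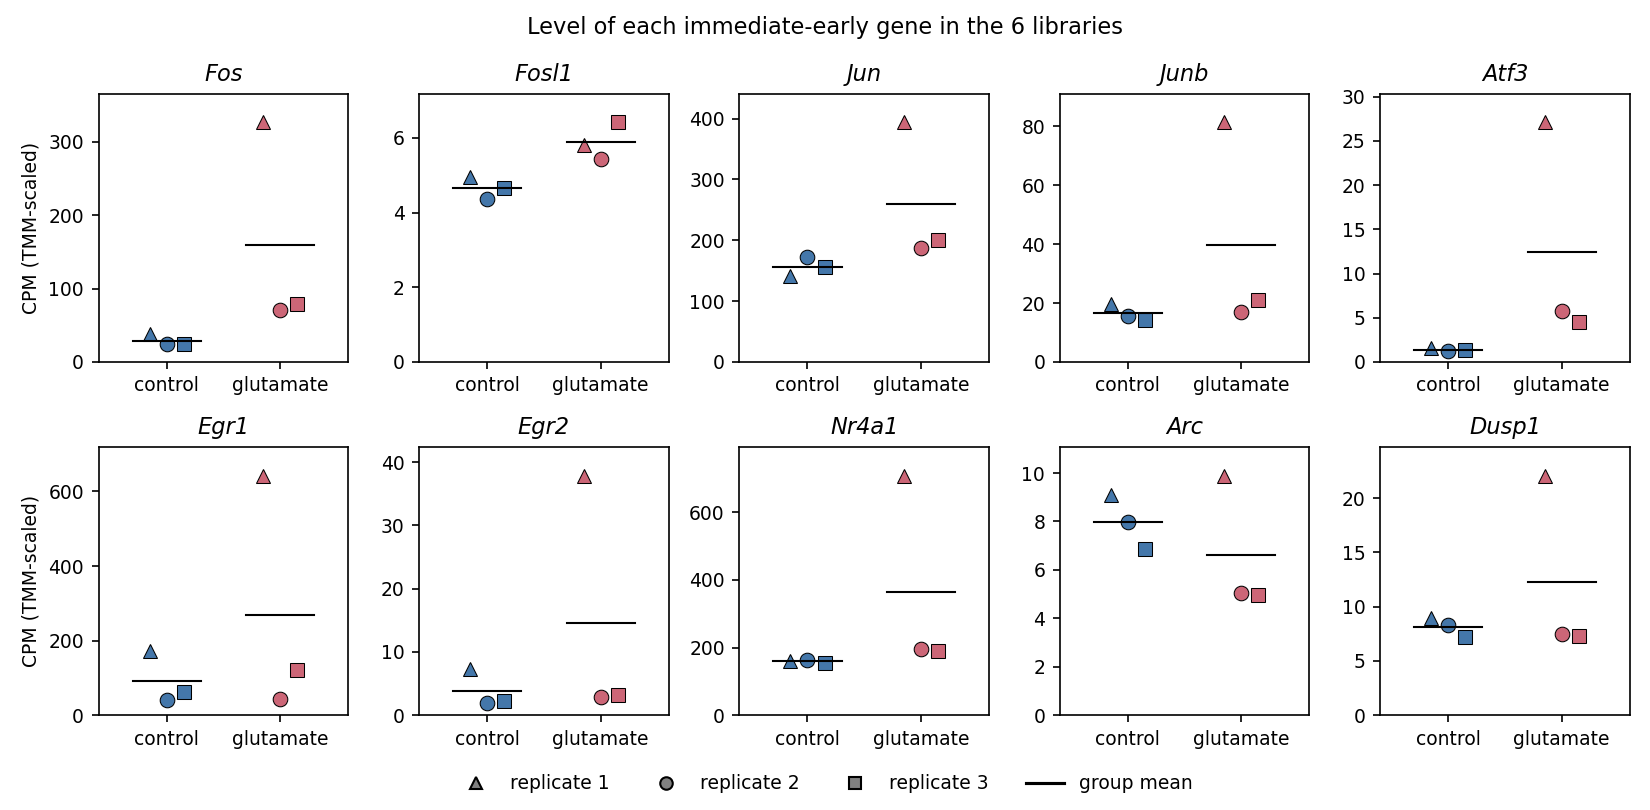
CPM (vertical axis, from 0, a scale of its own in each panel) of the 10 genes in the 3 control and 3 glutamate libraries. Symbols mark the replicate number and lines the group mean; glutamate replicate 1, the red triangle, is the highest point in every panel except Fosl1.

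Among the AP-1 genes, Fos encodes the prototype partner of Jun and is the most widely used marker of recent stimulation. Its level was 37.9, 24.5 and 23.8 CPM in control replicates 1 to 3, and 326.6, 70.6 and 79.4 CPM in glutamate replicates 1 to 3. Every glutamate library was above every control library, and glutamate replicate 2, the lowest, was still 1.86-fold above control replicate 1, the highest control. The log2 fold change was 2.47 (SE 0.78, n = 3 each), or 5.53-fold, which did not pass the test (edgeR adjusted p = 0.0849). Fos was called in 4 of 14 alternatives. With every library kept these were DESeq2 (adjusted p = 0.00899) and a filter of 1 CPM in 3 libraries (edgeR adjusted p = 0.0416). Glutamate replicate 1 was 11.4-fold above the control mean, and the mean of the other glutamate libraries was 2.61-fold above it. Without glutamate replicate 1 the log2 fold change was smaller, at 1.39, and Fos passed the test.

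Atf3 encodes a leucine zipper factor that is switched on by cell stress and injury as well as by activity. It stood at 1.56, 1.27 and 1.35 CPM in control libraries, and at 27.1, 5.80 and 4.56 CPM in glutamate replicates 1 to 3. The groups were well apart, since the lowest glutamate library was 2.93-fold above the highest control library. Its log2 fold change of 3.17 (SE 0.83, n = 3 each; 8.97-fold) was the largest of the 10 and passed the test narrowly (edgeR adjusted p = 0.0457). As with Fos, glutamate replicate 1 led, at 19.5-fold above the control mean against 3.72-fold for the mean of replicates 2 and 3. The call was lost without control replicates 1, 2 or 3 (edgeR adjusted p = 0.164, 0.151 and 0.146) and without glutamate replicate 2 (0.0546), and it held without glutamate replicates 1 or 3 (0.000225 and 0.0262). It was also lost with no filter beyond 1 count (edgeR adjusted p = 0.0956) and in a test against 1.5-fold (edgeR adjusted p = 0.267). In all, Atf3 was called in 7 of 14 alternatives.

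Fosl1, which encodes the Fos relative Fra-1, showed the opposite spread. Control libraries held 4.94, 4.36 and 4.65 CPM, and glutamate libraries 5.81, 5.44 and 6.42 CPM. The difference was small and even, with glutamate replicate 3 the highest and glutamate replicate 1 in the middle of its group. Fosl1 rose by 1.27-fold (log2 fold change 0.34, SE 0.10, n = 3 each; edgeR adjusted p = 0.0360). With 1 library left out the call held only without control replicate 1 (edgeR adjusted p = 0.0147). The adjusted p was 0.125 and 0.0565 without control replicates 2 and 3, and 0.0863, 0.0559 and 0.138 without glutamate replicates 1, 2 and 3 (edgeR), within a range of 0.00932 to 1 over 14 alternatives.

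Jun and Junb encode the partners that Fos proteins need to bind DNA. Jun was at 141.5, 172.1 and 155.3 CPM in control libraries and at 393.8, 187.3 and 199.8 CPM in glutamate replicates 1 to 3. All glutamate libraries exceeded all controls, but glutamate replicate 2 did so by 1.09-fold only, and the log2 fold change of 0.74 (SE 0.31, n = 3 each) did not pass the test (edgeR adjusted p = 0.139). Junb was at 19.6, 15.6 and 14.4 CPM in control libraries and at 81.4, 17.0 and 21.2 CPM with glutamate. Its groups overlapped, since glutamate replicate 2 lay below control replicate 1. The log2 fold change of Junb was 1.27, with a 95% interval from -0.61 to 3.15 (edgeR adjusted p = 0.255).

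Egr1 and Egr2 encode zinc finger factors that bind GC-rich sites in target promoters, Egr1 being a standard readout of ERK activity and Egr2 a regulator best known from myelinating Schwann cells and hindbrain patterning. Neither separated the groups. Egr1 was at 173.2, 40.4 and 61.1 CPM in control replicates 1 to 3, and at 642.8, 42.0 and 120.2 CPM in glutamate replicates 1 to 3. Glutamate replicate 2 was thus at the level of the lowest control library, and control replicate 1 was above glutamate replicates 2 and 3. Egr2 gave 7.22, 1.90 and 2.17 CPM in control libraries and 37.9, 2.82 and 3.19 CPM with glutamate. Its libraries numbered 1 were again the highest of their groups.

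These were the 2 genes of the 10 in which control replicate 1 lay at least 2-fold above both other controls, by 2.84-fold for Egr1 and 3.33-fold for Egr2. Over all genes tested 0.754% did so. The log2 fold change was 1.55 for Egr1 (95% interval -1.85 to 4.96; edgeR adjusted p = 0.421). For Egr2 it was 1.96 (95% interval -1.73 to 5.65; edgeR adjusted p = 0.356). With intervals this wide, neither a fall nor a rise of several fold could be told from no change.

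Promoter sequence was at hand for 6 of the 10 genes (Fosl1, Junb, Egr1, Egr2, Nr4a1 and Dusp1), matched by symbol in RefSeq's table for assembly GRCr8, a later assembly than the rn6 build of the counts. Each window ran from 250 bases before to 50 after the start, and 33469 windows of that length served as background. The 250 bases before the start are shown for Egr1 and Egr2, which shared the high control library, for Nr4a1, whose control libraries were even and which was over 2-fold above all others in glutamate replicate 1 alone, and for Fosl1, which was not. They lie in GRCr8 at chr18:26736828-26737077 (plus strand) for Egr1, chr20:21054442-21054691 (minus strand) for Egr2, chr7:134259888-134260137 (plus strand) for Nr4a1 and chr1:212183635-212183884 (plus strand) for Fosl1. Each is written 5′ to 3′ along the gene, with matches to the searched motifs in capitals.
Egr1: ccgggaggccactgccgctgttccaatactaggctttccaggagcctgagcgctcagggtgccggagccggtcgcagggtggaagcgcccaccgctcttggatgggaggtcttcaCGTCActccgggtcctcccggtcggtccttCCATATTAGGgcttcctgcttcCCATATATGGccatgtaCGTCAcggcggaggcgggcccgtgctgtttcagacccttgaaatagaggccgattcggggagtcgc
Egr2: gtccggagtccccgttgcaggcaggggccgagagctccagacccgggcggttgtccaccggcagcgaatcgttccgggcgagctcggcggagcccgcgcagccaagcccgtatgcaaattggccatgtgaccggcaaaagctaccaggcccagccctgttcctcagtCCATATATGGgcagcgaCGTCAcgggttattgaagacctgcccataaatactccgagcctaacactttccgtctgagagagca
Nr4a1: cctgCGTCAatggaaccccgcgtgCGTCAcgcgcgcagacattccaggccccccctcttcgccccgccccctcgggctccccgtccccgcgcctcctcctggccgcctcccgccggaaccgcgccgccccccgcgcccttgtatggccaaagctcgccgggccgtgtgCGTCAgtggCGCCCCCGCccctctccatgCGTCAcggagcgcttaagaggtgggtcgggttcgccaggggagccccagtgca
Fosl1: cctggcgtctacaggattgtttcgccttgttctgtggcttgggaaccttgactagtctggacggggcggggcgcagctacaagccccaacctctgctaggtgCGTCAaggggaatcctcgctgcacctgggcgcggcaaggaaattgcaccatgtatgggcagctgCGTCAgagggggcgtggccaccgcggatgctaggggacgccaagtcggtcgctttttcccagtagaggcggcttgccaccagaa

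The motifs were searched on both strands. The serum response element (CArG box), bound by serum response factor, was found in Egr1 and Egr2 alone of the 6, against 1.64% of all windows. Both promoters hold the same 10 bases, CCATATATGG, from 83 to 74 bases before the start, and Egr1 has a further match, CCATATTAGG, from 105 to 96 bases before it. The sequence TGACG, the core of the cAMP response element TGACGTCA that CREB binds, occurred in all 6 promoters and in 21.2% of all windows. In Egr1 and Egr2 a copy in reverse, CGTCA, lies from 66 to 62 bases before the start. Nr4a1 has 4 copies of this core, and the full TGACGTCA, which contains the core, was found in Dusp1 alone, against 1.83% of all windows. The EGR site GCGNGGGCG was present in Nr4a1, against 4.98% of all windows. No match to the AP-1 site TGACTCA or TGAGTCA was found in the 6, against 4.63% of all windows. These matches describe the sequence and were not tested as binding sites. Any link between a motif and the level of a gene in these libraries was not tested either.

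Nr4a1 encodes Nur77, an orphan nuclear receptor induced by calcium and growth factor signals. Its control libraries were close together, at 161.4, 164.4 and 154.1 CPM. Glutamate replicate 1 held 709.2 CPM, and glutamate replicates 2 and 3 held 195.4 and 189.6 CPM. All 3 glutamate libraries exceeded all controls, with replicates 2 and 3 only 1.20-fold above the control mean. The log2 fold change over 6 libraries was 1.19 (SE 0.62, n = 3 each) and did not pass the test (edgeR adjusted p = 0.229), whereas 0.28 without glutamate replicate 1 did.

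Arc encodes a cytoskeleton-associated protein that, in neurons, drives the removal of AMPA receptors from synapses. It was at 9.09, 7.97 and 6.86 CPM in control libraries and at 9.90, 5.03 and 4.96 CPM in glutamate replicates 1 to 3. Glutamate replicates 2 and 3 were thus below every control library, while replicate 1 was above every one; 27.5% of all genes tested had replicates 2 and 3 below every control. Arc was the only gene of the 10 with a negative log2 fold change, -0.27 (95% interval -0.96 to 0.43), which did not pass the test (edgeR adjusted p = 0.530), whereas -0.67 without glutamate replicate 1 did.

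Dusp1, the phosphatase that ends MAP kinase signalling, was at 8.98, 8.26 and 7.20 CPM in control libraries and at 22.1, 7.52 and 7.28 CPM with glutamate. Apart from glutamate replicate 1, the glutamate libraries lay within the range of the controls. The log2 fold change of Dusp1 was 0.59 (95% interval -0.59 to 1.78; edgeR adjusted p = 0.400).

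**Figure D3:**
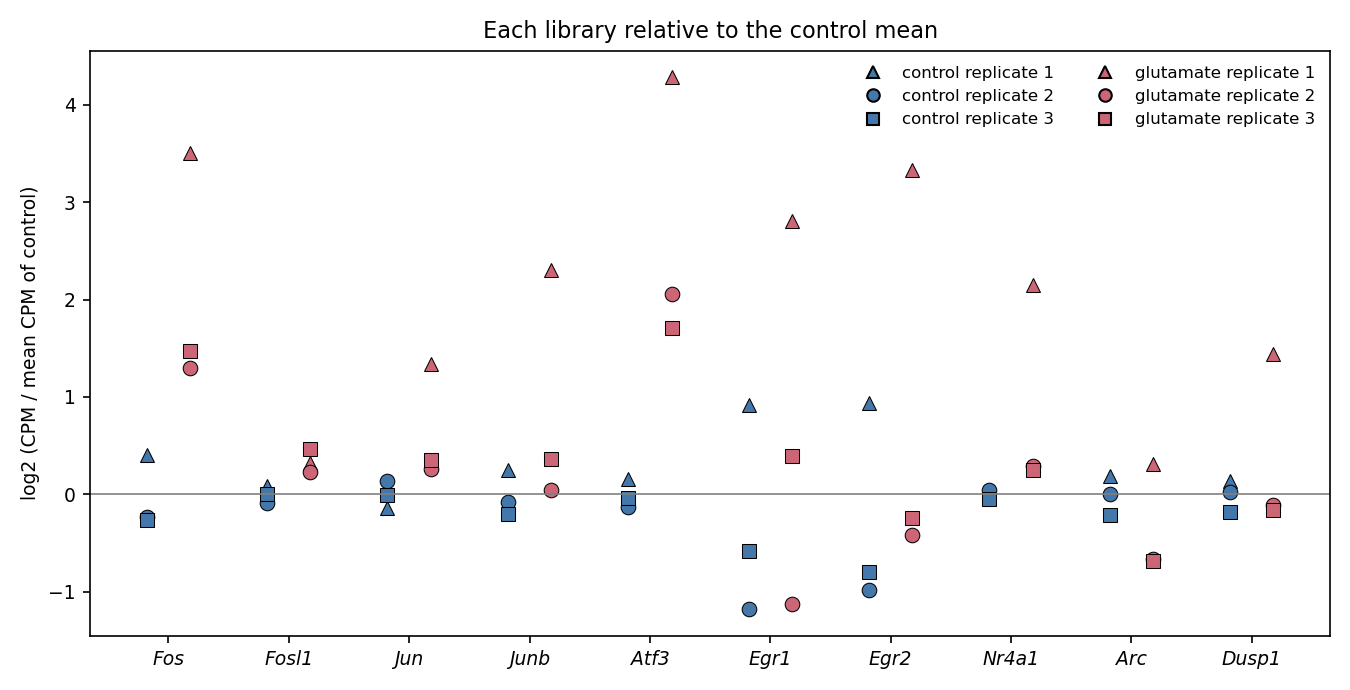
Level of each gene in each library relative to the mean of the 3 control libraries (vertical axis, log2 scale; 0 is the control mean). Blue symbols are control and red symbols glutamate libraries; the red triangle of glutamate replicate 1 is above the others for 9 of 10 genes, and the red circles and squares of replicates 2 and 3 both lie above 0 for Fos, Fosl1, Jun, Junb, Atf3 and Nr4a1, both below it for Egr2, Arc and Dusp1, and on either side of it for Egr1.

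Without glutamate replicate 1, Fos, Atf3 and Nr4a1 rose and Arc fell, with 2 glutamate against 3 control libraries. Rises then made up 9.12% and falls 6.02% of the 16138 genes tested. Fos rose by 1.39 on the log2 scale (SE 0.21; edgeR adjusted p = 0.0109, range over 14 alternatives 1.76e-07 to 0.515). The rise of Atf3 was 1.90 (SE 0.16; edgeR adjusted p = 0.000225, range 8.98e-06 to 0.267), smaller than with all libraries with a smaller SE. Nr4a1 rose by 0.28 (SE 0.06; edgeR adjusted p = 0.0255, range 0.00391 to 1), or 1.21-fold. Arc fell by 0.67 (SE 0.14, edgeR adjusted p = 0.0161, range 0.00321 to 1), which is a level of 0.631 of control. The 14 alternatives include this fit. In each of these genes the lowest adjusted p came without both libraries numbered 1 and the highest from a test against 1.5-fold. Nr4a1 and Arc were called in 2 of the 14 alternatives, neither of which used glutamate replicate 1. That library was left out for its values in these genes, so the smaller spread that remains is in part a product of that choice.

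In the same fit Jun stood at 0.32 (SE 0.09; edgeR adjusted p = 0.0519, range over its 14 alternatives 0.0168 to 1) and Fosl1 at 0.36 (SE 0.12; edgeR adjusted p = 0.0863), so neither was called. Junb was at 0.22 (95% interval -0.14 to 0.57). The signs of Egr1, Egr2 and Dusp1 turned negative, at -0.17, -0.32 and -0.13, with intervals that all included 0. The median log2 fold change of the 10 genes was 0.25 without this library, and 6 of the 10 values were positive.

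Leaving out both libraries numbered 1, which removes the high control library of Egr1 and Egr2 as well, left 2 against 2 libraries and 7 rises and 1 fall among the 10 genes. Over all 15946 genes tested, 13.8% rose and 13.4% fell in this fit. Fos, Fosl1, Jun, Junb, Atf3, Egr2 and Nr4a1 were the rises, of which Fos (3.10-fold) and Atf3 (3.94-fold) exceeded 2-fold. Egr2 rose by 0.56 (SE 0.15, edgeR adjusted p = 0.0173). Of its 13 alternatives, which include this fit, Egr2 was called in this 1 alone (edgeR adjusted p range 0.0173 to 1). Egr1, at 0.68 with a 95% interval from -2.30 to 3.65, was not called. Arc was again the fall, at -0.57. Dusp1 was at -0.07 (95% interval -0.29 to 0.15). The libraries left out were chosen by their values in these genes, so the smaller spread that remains is in part a product of that choice.

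**Figure D4:**
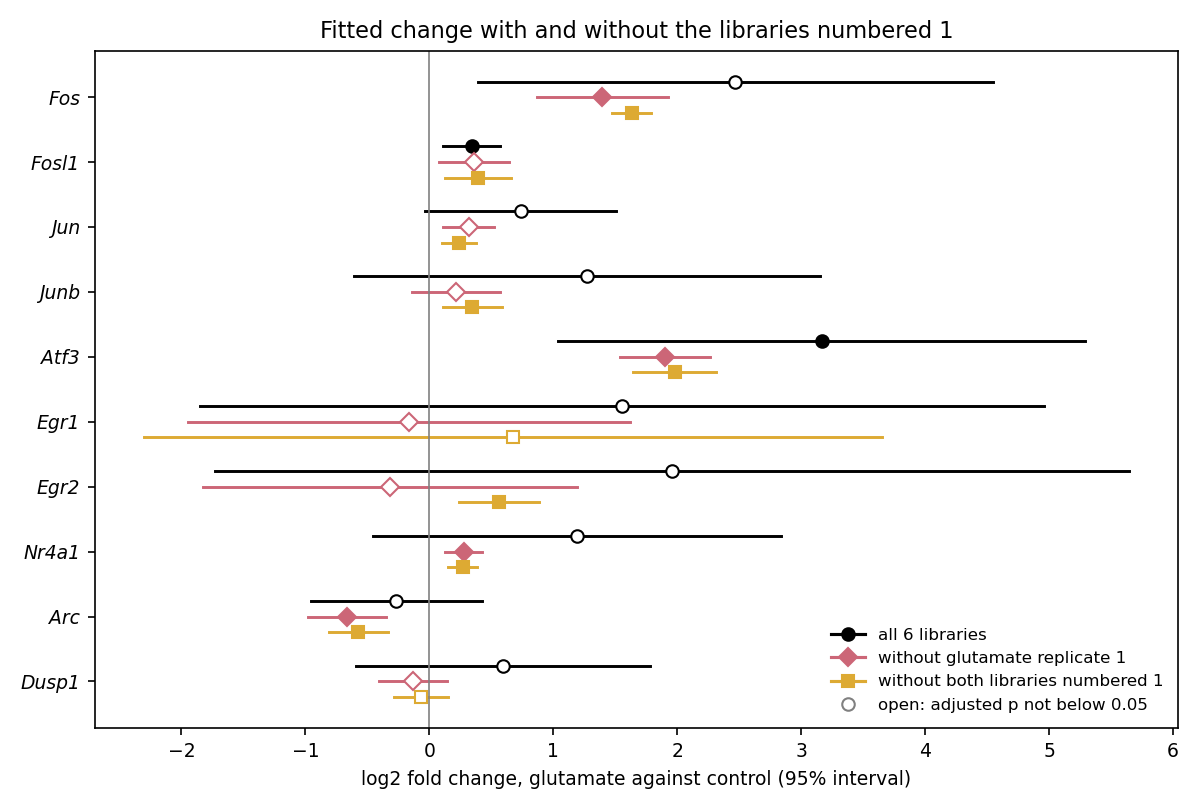
Fitted log2 fold change of each gene (horizontal axis, glutamate against control) with its 95% interval, using all 6 libraries (black), without glutamate replicate 1 (red) and without both libraries numbered 1 (yellow). Filled symbols passed an adjusted p below 0.05: 2 genes in the first fit, 4 in the second and 8 in the third.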

How the data were processed

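Each of the 6 deposited files lists raw counts by Ensembl gene ID, per the file headers. The submitters' processing notes name Trim Galore 0.6.5, STAR 2.7.8a, SAMtools, featureCounts 2.0.1 and build rn6. Annotation release and strand setting are not stated there, so genes that overlap a neighbour are uncertain. From the counts, genes kept by filterByExpr (minimum count 10, minimum total 15) were scaled by TMM and tested with edgeR 4.0.16 (R 4.3.3; robust quasi-likelihood fit, Benjamini-Hochberg adjustment over all 15919 genes). SE is the log2 fold change divided by the root of its F statistic, and 95% intervals use the fit's degrees of freedom.

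All 10 genes are named whatever their values. The members and lists were chosen with earlier results of these data known. A list of further pathway genes and lists of cell type markers, fixed by symbol, could not be matched, since 0 of 47357 rows of the RefSeq gene table carry an Ensembl ID. Alternatives were other scalings, filters, DESeq2 1.42.0, a test against 1.5-fold, a replicate block and leaving out libraries. Over all genes tested, same-numbered libraries did not deviate together in every pair (correlations 0.153, -0.088 and 0.297), so the numbers were not used as pairs. For the 10 genes the replicate block gave a lower SE in all but Jun, by very little in Fosl1, with values in the closing section. Whether same-numbered libraries share an animal or a culture was not tested.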

Additional observations from a re-analysis of the deposited data

How the results depend on the processing

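With any 1 library omitted, the genes called numbered between 2420 and 5584 (rises 1397 to 2921, falls 945 to 2663), with 0 to 3 rises and 0 to 1 falls among the 10 genes. The log2 fold change then ran from 1.39 to 2.83 for Fos, 0.27 to 0.40 for Fosl1, 0.32 to 0.93 for Jun, 0.22 to 1.64 for Junb, 1.90 to 3.56 for Atf3, -0.17 to 2.40 for Egr1, -0.32 to 2.85 for Egr2, 0.28 to 1.499 for Nr4a1, -0.67 to -0.093 for Arc and -0.13 to 0.86 for Dusp1. The lowest value came from the fit without glutamate replicate 1 in each of these except Fosl1. Fos was called by DESeq2 (2.47, adjusted p = 0.00899) and with a filter of 1 CPM in 3 libraries (2.48, edgeR adjusted p = 0.0416); DESeq2 gave Egr2 no p. With no filter beyond 1 count, 1 of the 10 genes rose, against 9.74% of all genes tested, and Atf3 (3.16, edgeR adjusted p = 0.0956) was not called. Against 1.5-fold, 534 genes were called (430 rises, 104 falls) and 0 of the 10, with 2 of them at an unadjusted p under 0.05; Fosl1 (0.34) and Atf3 (3.17) lost their call. The replicate block gave 1 rise among the 10, Fosl1, against 15.2% of all genes tested, with Atf3 at 2.71 (edgeR adjusted p = 0.0526). With the block the SE fell from 1.26 to 0.46 for Egr1, from 1.38 to 0.50 for Egr2 and from 0.78 to 0.42 for Fos. The SE was also lower for Junb, Atf3, Nr4a1, Arc and Dusp1, nearly the same for Fosl1, and higher for Jun alone (0.31 to 0.33). Fos was then at 2.12 (edgeR adjusted p = 0.0503) and was not called. The block moved the called genes from 4413 to 4553, and in 1 of the 3 pairs the correlation of same-numbered deviations was below 0. Without both libraries numbered 1, an alternative chosen after the data were seen, 7 of the 10 rose and 1 fell: Fos 1.63, Jun 0.24, Junb 0.35, Egr2 0.56, Nr4a1 0.27 and Arc -0.57 gained a call, and Dusp1 turned to -0.066. The cause of these shifts was not tested beyond the library left out. RLE factors and total counts changed no call among the 10 genes. The coefficient of variation between libraries was 4.16 to 264.2 times what counting alone gives, except for Fosl1 (1.78 times in control and 2.66 times in glutamate libraries) and Atf3 in control libraries (1.66 times), where counting error is a larger part of the spread. A shorter promoter window, ending at the start, found each motif in the same promoters of these genes and lowered the background shares to between 1.16% (CArG box) and 15.9% (TGACG). The planned counts over the pathway list were not run, because its symbols could not be matched.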
